A study of Mus musculus with 2 samples.

Results

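The genes that make, load, take back, break down and anchor the acetylcholine system were followed across the open chromatin of MN1 cells: Chat, Slc18a3, Slc5a7, Ache, Bche and Colq. They were chosen by name, 6 of 21938 protein-coding genes of GENCODE M21, and each was examined over its gene body plus 50 kb on each side on mm10. Chat and Slc18a3 lie in the same place, so the 6 genes give 5 windows. These windows held 110 of 170286 peaks in replicate 1 and 103 of 162691 peaks in replicate 2.

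DNase-seq reads out where the enzyme DNase I can cut chromatin, and MN1 is a mouse line that the labels call immortalized and assign to strain B6NCrl. The study holds 1 group of 2 biological replicates with 1 library each. Its labels name no tissue, treatment, genotype, age or sex, so there was no cell type to check against markers. No condition is set against another, and with 2 libraries of 1 group no test was run: all values below are counts, positions and ranks, given beside the same quantity over all protein-coding genes or all peaks.

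Acetylcholine is the transmitter of motor neurons, of parasympathetic neurons and of scattered neuron groups in the brain. Choline acetyltransferase, the product of Chat, joins choline to an acetyl group from acetyl-CoA; the vesicular transporter encoded by Slc18a3 packs the product into synaptic vesicles. Slc18a3 has its coding sequence within the Chat gene, an arrangement known as the cholinergic gene locus and kept from worms to mammals. After release the transmitter is split by acetylcholinesterase (Ache) or butyrylcholinesterase (Bche), the collagen-like tail encoded by Colq ties acetylcholinesterase to the basal lamina of the neuromuscular junction, and the high-affinity transporter encoded by Slc5a7 brings choline back into the nerve ending.

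A peak here is a 150 bp stretch that the authors called as accessible in a library, and a hotspot is a broader enriched stretch of variable length. Shared peaks are those with an overlap of at least 1 bp with any peak of the other library's list, and a peak was called a promoter peak if its centre lay within 1 kb of an annotated start site of a protein-coding gene. The score of a peak is the authors' own; it has no stated normalization, so it is given only as its percentile within its own library's list. Shared peaks are counted on the list of replicate 1 unless stated otherwise.

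The 6 genes divided into 4 with many shared peaks and 2 with almost none. Promoter peaks were present in both libraries at Chat, Slc18a3, Ache and Colq, which is 4 of 6 genes, and over all protein-coding genes the share was 58.9%. A promoter peak of replicate 1 overlapped a peak of replicate 2 at 3 of the 6 genes (Chat, Slc18a3 and Ache), against 58.6% of all genes. Slc5a7 and Bche had no promoter peak in either library. The counts of 4 and 3 are near those shares, so they do not set the genes apart as a group.

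**Figure D1:**
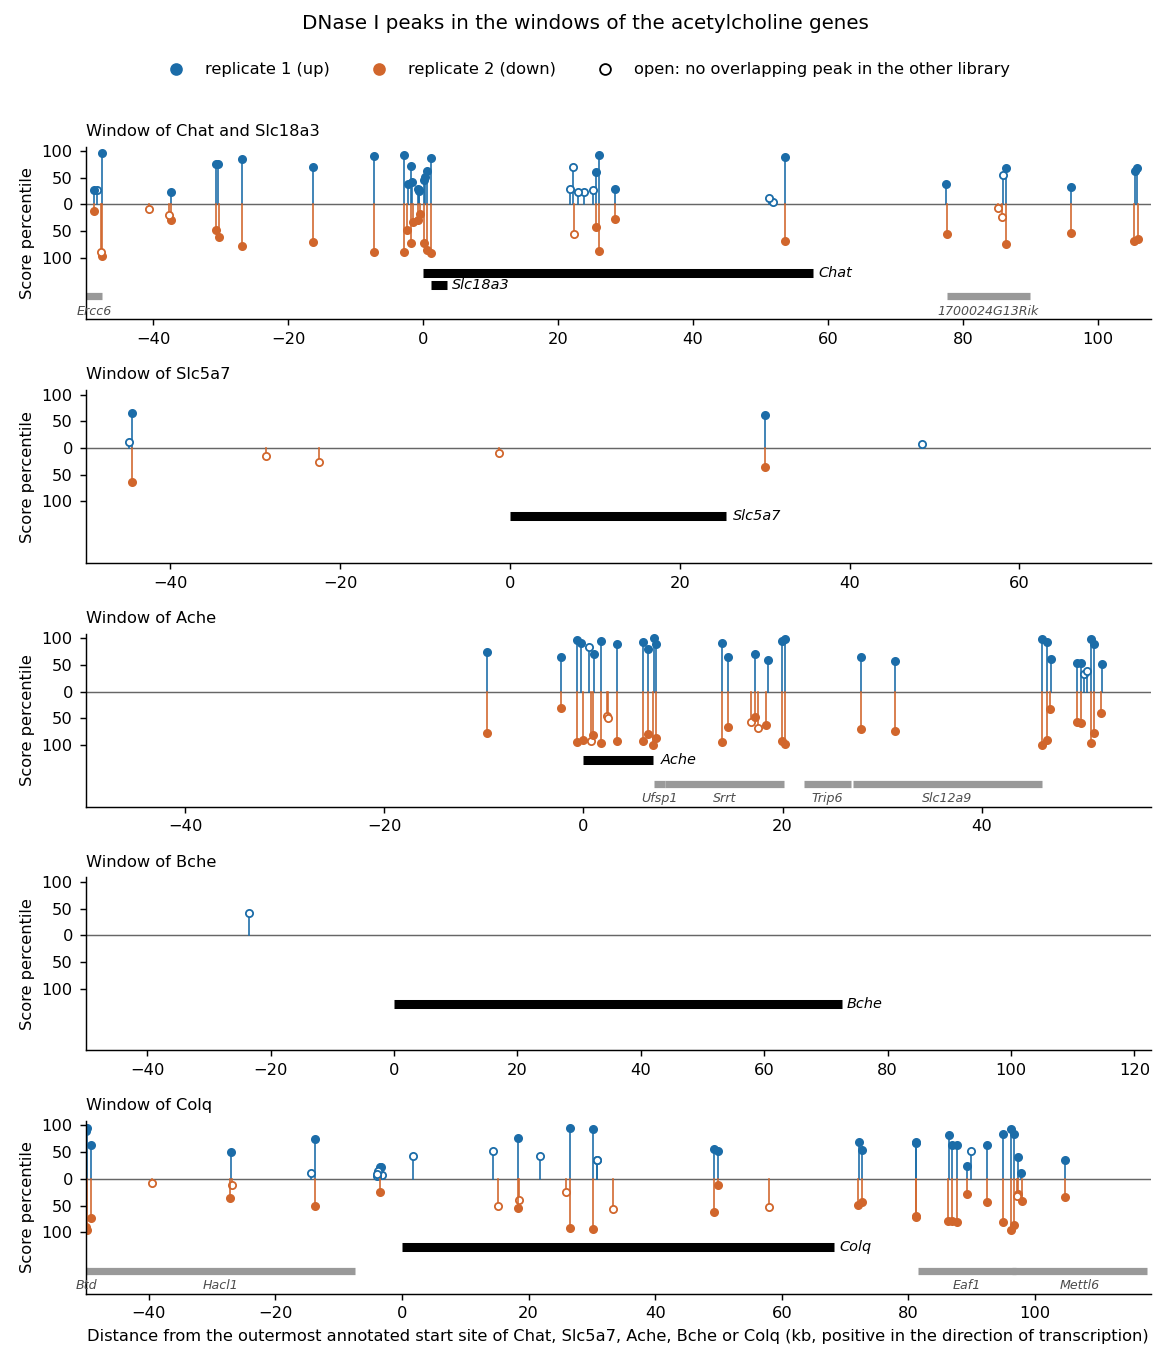
Peaks of replicate 1 (up, blue) and replicate 2 (down, orange) in the 5 windows, by distance in kb from the outermost start site and by score percentile within the library. Filled points overlap a peak of the other library, black bars are the acetylcholine genes and grey bars other coding genes; the windows of Slc5a7 and Bche are nearly empty, with 2 and 0 shared peaks.

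Over whole windows, Chat had 28 shared peaks, Slc18a3 22, Slc5a7 2, Ache 27, Bche 0 and Colq 26. The median was 24 over the 6 genes and 11 over all protein-coding genes, with quartiles of 3 and 20. Chat stood at percentile 89.5 of all genes, Slc18a3 at 80, Ache at 88.3 and Colq at 86.9. Slc5a7 stood at percentile 22.6 and Bche at 8.23, the rank shared by the 16.5% of genes with no shared peak. These counts include promoter peaks of neighbouring genes. By shared distal peaks alone, Chat stood at percentile 91.2, Slc18a3 at 82.7, Ache at 77.2 and Colq at 89.8. Slc5a7 stood at 29.3 and Bche at 9.39 by that count. Per 10 kb of window the order of the first 4 changed: Ache had 2.525 shared peaks, Slc18a3 2.148, Chat 1.775 and Colq 1.545, and the median of all genes was 0.777. The window of Slc18a3 lies inside that of Chat, so all its peaks are also peaks of the Chat window.

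**Figure D2:**
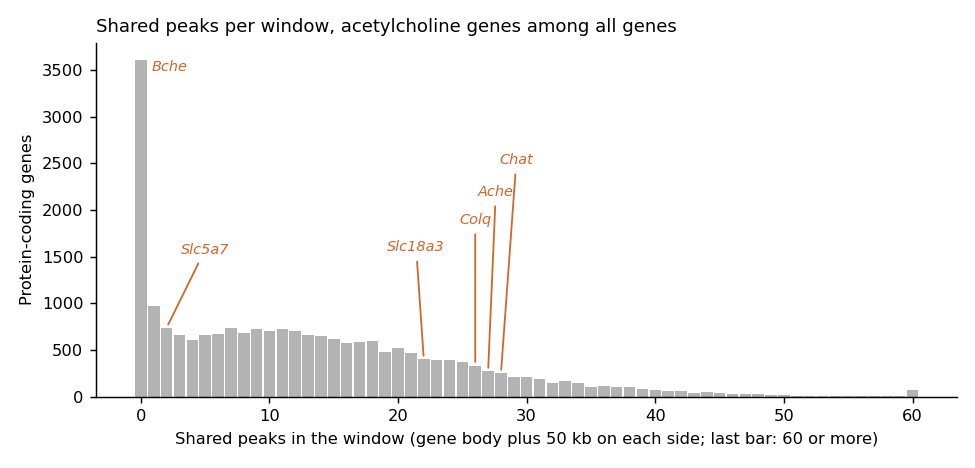
Number of protein-coding genes (vertical axis) with a given number of shared peaks in the window (horizontal axis), with the acetylcholine genes marked. Chat, Ache, Colq and Slc18a3 lie above the upper quartile of 20 shared peaks, and Slc5a7 and Bche below the lower quartile of 3.

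Joined into 5 windows, the region held 83 shared peaks of 110 in replicate 1 (75.5%) and 81 of 103 in replicate 2 (78.6%). The shares over all peaks were 67.1% in replicate 1 and 70.2% in replicate 2. Of the 83 shared peaks, 11 lay at promoters of the 6 genes themselves, 21 at promoters of other coding genes and 51 were distal. A shared peak had the same coordinates in both libraries in 27 cases (32.5%), and over all shared peaks this was so in 30.6%.

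Recognition letters of 10 kinds of transcription factor were searched on both strands of each peak. AP-1 sites (TGANTCA, bound by Fos and Jun proteins) were in 11 of the 83 shared peaks, and in 12% of all 114222 shared peaks of the series. The E-box CAGCTG, a site of basic helix-loop-helix proteins, was in 10 of the 83 and in 14.3% of all. The SP/KLF box GGGGCGGG was in 7 of the 83 and in 4.86% of all. Promoter peaks were 32 of the 83, against 30977 of 114222 in the series. By kind, the SP/KLF box was in 5 of these 32, against 13.8% of all shared promoter peaks. It was in 2 of the 51 distal peaks, against 1.55% of all shared distal peaks. ETS sites (CCGGAAG) were in 4 of the 83 against 2.97% of all. They were in 2 of the 32 promoter peaks against 7.25%, and in 2 of the 51 distal peaks against 1.37%. Homeodomain sites (TAATTA) were in 3 of the 83 against 4.04% of all. The CRE (TGACGTCA, a site of CREB and ATF proteins) was in 1 against 0.777%. PHOX2 sites were in 1 of the 83 and in 0.657% of all, CTCF sites in 1 and in 5.83% of all, and GATA sites (AGATAA) in none against 7.04% of all. An exact RE1, the element of the repressor REST that keeps neuronal genes silent in other tissues, was in none of the 83 and in 0.0368% of all shared peaks. Sites of different kinds were counted separately, also where they overlapped. Widening each stretch to 300 bp around the peak centre gave 6 peaks with a GATA site, 16 with an E-box and 2 with a PHOX2 site. With 83 peaks these counts are small, and none of them is put forward as particular to the windows. Only exact matches to the pattern of each kind were counted, and RE1 alone was also searched with at most 1 mismatch. A peak without a match may therefore hold a near match, also to CTCF. A match says that the letters are in the peak and nothing about binding.

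Chat, the synthetic enzyme, runs on the minus strand at chr14:32408203-32465989 (mm10), and Slc18a3, the vesicular transporter, at chr14:32462438-32464850 on the same strand inside it. The antisense RNA gene Gm2990, at chr14:32465042-32483548 on the plus strand, covers the start of Chat and the first kilobases upstream of it. The joined window held 37 peaks in replicate 1 and 32 in replicate 2. Hotspots covered 9.15% of it in replicate 1 and 8.01% in replicate 2, against medians of 4.06% and 3.708% over the windows of all genes. Accessible sequence was therefore spread over more of this window than over the middle gene's in both libraries.

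A single long hotspot covered the start of Slc18a3 and the 2 outermost of the 5 annotated starts of Chat. The 3 inner starts of Chat lay in no hotspot and had no peak within 1 kb in either library. The hotspot measured 1957 bp in replicate 1 and 2015 bp in replicate 2, at percentiles 98 and 98.6 of hotspot length, with its q-value at 100 on the −log10 scale, the cap of the lists, in both. The peak with the highest score inside it sat at the start of Slc18a3, at percentile 87 in replicate 1 and 90.7 in replicate 2, with its centre 80 and 60 bp into the gene. The next peak, 480 bp upstream of Slc18a3 and between the starts of the 2 genes, had the same coordinates in both libraries and stood at percentile 62.5 in replicate 1 and 85.8 in replicate 2. At the outermost starts of Chat the peaks stood at percentiles 51.4 and 45 in replicate 1 and 71.4 in replicate 2. Within this hotspot the score was thus higher at Slc18a3 than at Chat in both libraries, and replicate 2 ranked the peak between the genes and the Chat peak higher than replicate 1 did.

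Upstream of Chat the peaks continued in steps. Weak promoter peaks, at percentiles 18.3 to 28.9 over both libraries, lay 502 to 802 bp upstream. A group of 4 shared peaks followed 1562 to 2802 bp upstream in replicate 1, and the farthest of them, 2802 bp upstream, ranked highest, at percentile 92.7 in replicate 1 and 88.8 in replicate 2. The peak 1842 bp upstream stood at 72.3 in replicate 1 and 72.7 in replicate 2. Single shared peaks stood 7202 bp upstream, at percentiles 91.5 and 89.2, and 16282 bp upstream, at 69.5 and 70.1. All of these lie in an intron of Gm2990, and the last 4 peaks with values here stood within 4 percentile points of each other in the libraries.

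**Figure D3:**
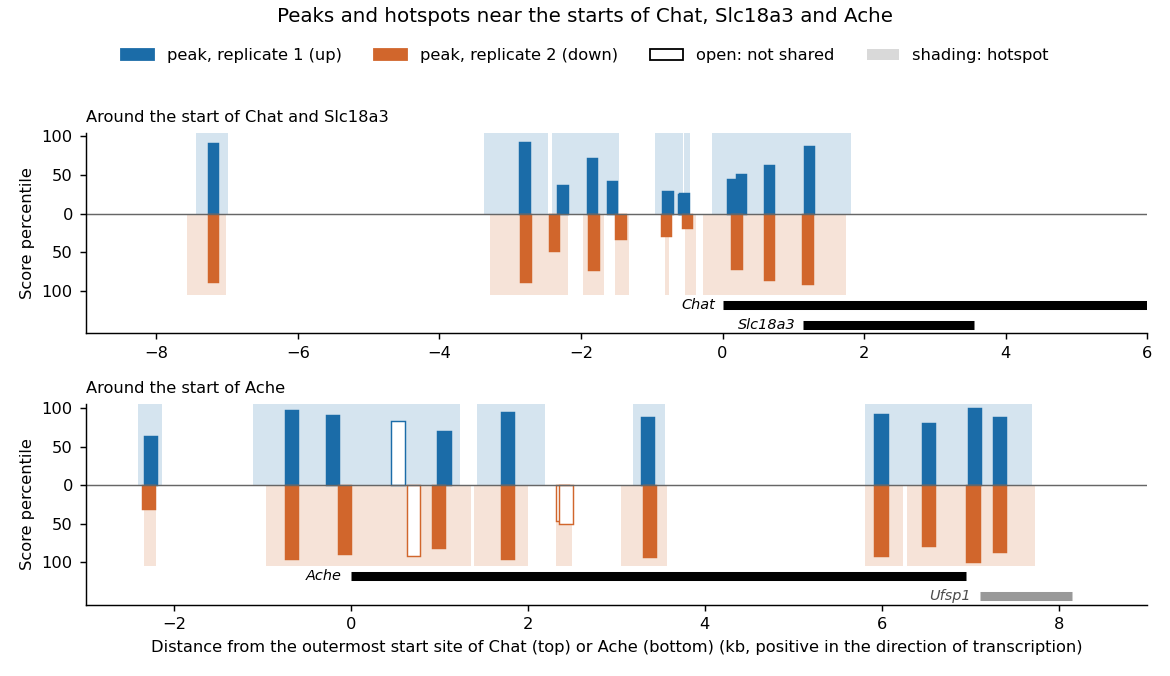
Peaks (bars, height as score percentile) and hotspots (shading) of replicate 1 (up) and replicate 2 (down) around the starts of Chat and Slc18a3 and of Ache, by distance in kb from the outermost start site. A hotspot of 1957 bp in replicate 1 and 2015 bp in replicate 2 spans the start of Slc18a3 and the 2 outermost of the 5 starts of Chat, and a hotspot of 2333 bp in replicate 1 and 2326 bp in replicate 2 spans most of the starts of Ache.

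Further peaks stood beyond Gm2990 and within the Chat gene. The peak 26762 bp upstream held an AP-1 site and stood at percentiles 84.4 in replicate 1 and 78.1 in replicate 2. A pair of peaks followed, of which the outer, 30642 bp upstream, stood at 74.9 in replicate 1 and 47.3 in replicate 2. In the introns of Chat 4 distal peaks were shared, and the highest were at chr14:32439876-32440025 (93 in replicate 1, 86.5 in replicate 2) and at chr14:32412336-32412485 (88.5 in replicate 1, 68.8 in replicate 2). The first of them ranked above the peaks at the Chat start in both libraries and the second in replicate 1 only. A peak in replicate 1, at chr14:32443636-32443785 and percentile 69.5, had no peak over it in replicate 2 but lay in a hotspot there; replicate 2 placed its own peak at chr14:32443476-32443625, at percentile 55.4. Between chr14:32440716 and chr14:32444265 replicate 1 had 4 more peaks without a partner, at percentiles 23.3 to 28.8.

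The 5 peaks below carry the points made about this locus and are written in mm10 coordinates. The first lies between the starts of the 2 genes and holds an E-box and an SP/KLF box. The second, chosen after its match was seen, holds a RE1 with at most 1 mismatch, which is the capital stretch. The third, and the peak after it, are the 2 highest-ranked distal peaks upstream in both libraries. The third holds a pair of homeodomain sites that share 2 letters, of which the peak of replicate 2 covers the first. In the genome sequence 22.7% of the letters of the third peak are marked as repeats. The fourth holds no exact match to the sites searched. The fifth, also chosen for its letters, holds an AP-1 site followed by the only CRE among the 83 peaks; the peak of replicate 2 covers the AP-1 site and not the CRE. Capitals mark these sites.
Slc18a3-Chat peak, chr14:32465256-32465405, plus strand: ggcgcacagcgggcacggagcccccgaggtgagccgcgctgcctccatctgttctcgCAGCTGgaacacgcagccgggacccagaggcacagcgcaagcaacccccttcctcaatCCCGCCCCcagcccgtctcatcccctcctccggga
Chat 1.8 kb upstream, chr14:32467756-32467905, plus strand: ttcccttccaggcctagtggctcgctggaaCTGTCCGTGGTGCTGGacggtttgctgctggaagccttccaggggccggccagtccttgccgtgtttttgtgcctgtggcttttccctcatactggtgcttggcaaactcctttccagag
Chat 2.8 kb upstream, chr14:32468716-32468865, plus strand: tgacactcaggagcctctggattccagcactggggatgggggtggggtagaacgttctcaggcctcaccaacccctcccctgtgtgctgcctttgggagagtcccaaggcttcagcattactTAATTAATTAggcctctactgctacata
Chat 7.2 kb upstream, chr14:32473116-32473265, plus strand: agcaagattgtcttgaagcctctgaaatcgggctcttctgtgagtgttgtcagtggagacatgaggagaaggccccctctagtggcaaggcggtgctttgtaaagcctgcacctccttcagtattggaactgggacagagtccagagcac
Chat 30.6 kb upstream, chr14:32496556-32496705, plus strand: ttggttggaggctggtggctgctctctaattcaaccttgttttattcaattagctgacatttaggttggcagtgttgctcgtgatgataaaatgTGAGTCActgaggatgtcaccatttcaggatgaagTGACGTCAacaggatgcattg

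The cholinergic gene locus is a known target of REST. With at most 1 mismatch allowed, 12 matches lay in the 5 windows, and 1 of them lay in a shared peak: the second sequence above, at chr14:32467786-32467801 on the minus strand, inside the peaks of both libraries. Over the whole series 690 of 114222 shared peaks held such a match, or 0.604%. The 4 other matches near Chat and Slc18a3 were in no peak of either library, and neither were those at Ache, among them the only exact RE1 of the windows, at chr5:137298398-137298413. At Colq none lay wholly in a peak, and 10 of the 16 letters of the match at chr14:31505076-31505091 lay in a peak of replicate 2. Binding was not measured.

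Slc5a7, the choline transporter of the nerve ending, runs on the minus strand at chr17:54273590-54299034. Its window of 125445 bp held 4 peaks in replicate 1 and 5 in replicate 2, and no other coding gene starts in it. Hotspots covered 0.821% of the window in replicate 1 and 0.938% in replicate 2. No peak of either library lay inside the gene, and none lay within 1 kb of its 3 annotated start sites. Replicate 2 had a peak 1296 bp upstream, at percentile 10.2 and in a hotspot of 346 bp with a −log10 q-value of 3.11, and replicate 1 had neither peak nor hotspot there. Both libraries thus held few peaks here, and none that they share near a start.

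The 2 shared peaks of the Slc5a7 window were both intergenic and far from its outermost start. The peak 44556 bp upstream stood at percentile 65 in replicate 1 and 63.7 in replicate 2, with hotspots at the cap of 100 in both. The peak beyond the end of the gene, 10254 bp downstream of the innermost start, had the same coordinates in both libraries, at percentile 61.7 in replicate 1 and 36.4 in replicate 2. The other peaks, 2 in replicate 1 and 3 in replicate 2, stood at percentiles 7.9 to 26.8 and were each in a single library. Both shared peaks are written here because they are the only shared ones. Capitals in the second mark an SP/KLF box, and the first held no exact match to a site searched.
Slc5a7 upstream, chr17:54343516-54343665, plus strand: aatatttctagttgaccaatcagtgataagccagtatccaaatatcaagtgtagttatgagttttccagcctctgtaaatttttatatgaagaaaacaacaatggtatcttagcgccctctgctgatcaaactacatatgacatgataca
Slc5a7 downstream, chr17:54268876-54269025, plus strand: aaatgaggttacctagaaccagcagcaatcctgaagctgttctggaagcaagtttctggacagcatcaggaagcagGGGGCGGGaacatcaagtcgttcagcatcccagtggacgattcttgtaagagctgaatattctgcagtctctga

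Ache, the main acetylcholine-splitting enzyme of synapses, runs on the plus strand at chr5:137287519-137294466 and has 8 annotated start sites. Its window of 106948 bp held 30 peaks in replicate 1 and 32 in replicate 2, and 27 of those of replicate 1 were shared. Hotspots covered 12.7% of the window in replicate 1 and 12.2% in replicate 2. The share of accessible sequence was thus the highest among the 5 windows in both libraries. Of the 27 shared peaks 4 were at the promoter of Ache, 11 at promoters of Ufsp1, Srrt, Trip6 and Slc12a9, and 12 were distal, so more of the promoter peaks belonged to neighbours than to Ache.

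Replicate 1 had 5 promoter peaks at Ache and replicate 2 had 7. The peak 668 bp upstream of the outermost start had the same coordinates in both libraries and stood at percentile 96.8 in replicate 1 and 95.1 in replicate 2. The peak at the innermost start, 44 bp into the transcript that begins there, also had the same coordinates in both and stood at 95.2 in replicate 1 and 95.6 in replicate 2. Between them the libraries placed the peaks differently: near the start at position 137288277 replicate 1 had a peak centred 226 bp upstream (percentile 83.1) and replicate 2 had a peak centred 46 bp upstream (percentile 91.8), and these did not overlap. Each of those peaks lay in a hotspot in both libraries. A hotspot of 2333 bp in replicate 1 and 2326 bp in replicate 2, at length percentiles 99 and 99.3, covered every start except the 2 innermost. Ache therefore had strong promoter peaks at both ends of its range of starts in each library.

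Within and behind the gene, shared peaks stood in a coding exon (percentile 88.2 in replicate 1, 92.6 in replicate 2) and in an intron, 4264 bp past the innermost start (92.4 in replicate 1, 92.3 in replicate 2). The intronic peak is also only 1118 bp from the start of Ufsp1. In replicate 1 it shares a hotspot of 1882 bp with the promoter peaks of Ufsp1, and in replicate 2 it has its own of 427 bp. The highest-ranked peak of all 5 windows lay at the promoter of Ufsp1, a gene of a Ufm1 protease that starts right behind Ache, at percentile 99.9 in replicate 1 and 99.3 in replicate 2. The peaks at Srrt (99.1 and 97.1) and Slc12a9 (97.6 and 98.9) came close to it in replicates 1 and 2. The highest distal peak, at chr5:137338376-137338525, stood at percentile 98.3 in replicate 1 and 95.3 in replicate 2. It lay 4853 bp upstream of the start of Slc12a9. It also lay 1041 bp past the start of Gm43012, a gene model that is not annotated as protein-coding. Which gene any distal peak acts on was not measured. Upstream of Ache only 2 shared distal peaks were found, 2268 and 9648 bp away. Both lie in the intron of Gm42456, an RNA gene on the opposite strand that covers the start of Ache, and all but 4 of the 27 shared peaks lay downstream of its outermost start, on the side of the neighbouring genes.

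Of the 2 promoter peaks of Ache with equal coordinates in both libraries, the one upstream of the outermost start is written here. It ranked highest of the Ache promoter peaks in replicate 1 and next to highest in replicate 2. It held no exact match to the sites searched.
Ache 0.7 kb upstream, chr5:137286776-137286925, plus strand: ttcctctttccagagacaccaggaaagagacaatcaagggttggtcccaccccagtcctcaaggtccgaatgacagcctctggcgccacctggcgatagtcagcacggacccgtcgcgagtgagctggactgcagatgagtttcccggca

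Bche, the broader esterase best known from blood plasma and liver, runs on the minus strand at chr3:73635808-73708415. Its window of 172608 bp, the longest of the 5, held 1 peak in replicate 1 and 0 in replicate 2. That peak lay 23456 bp upstream, at percentile 42.1, in a hotspot of 205 bp with a −log10 q-value of 4.15; hotspots covered 0.119% of the window in replicate 1 and none of it in replicate 2. No other coding gene starts in the window, and widening the flanks to 100 kb gave 0 shared peaks as well. By shared peaks per 10 kb the 2 enzymes that break down acetylcholine thus stood at opposite ends of the 6 genes. The peak of replicate 1 held a CTCF site and an AP-1 site 2 letters apart, both in capitals.
Bche upstream, replicate 1 only, chr3:73731796-73731945, plus strand: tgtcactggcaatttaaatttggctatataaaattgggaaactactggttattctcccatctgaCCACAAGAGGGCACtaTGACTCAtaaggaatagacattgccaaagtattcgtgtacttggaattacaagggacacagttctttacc

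Colq, the collagen tail of acetylcholinesterase, runs on the minus strand at chr14:31523082-31591343 and has 5 annotated start sites. Its window of 168262 bp held 38 peaks in replicate 1 and 34 in replicate 2, of which 26 of replicate 1 were shared. Hotspots covered 7.36% of the window in replicate 1 and 6.18% in replicate 2. None of the shared peaks lay at a start of Colq: 8 lay at promoters of Eaf1, Mettl6, Hacl1 and Btd, and 18 were distal. The window is thus rich in shared peaks without a shared promoter peak of its own gene.

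Colq met the rule of a promoter peak in both libraries through different starts. Replicate 1 had its peak 492 bp inside the start at position 31577383, at percentile 52.6, and replicate 2 had its peak 190 bp inside the start at position 31558140, at percentile 56.4. Neither library had a peak within 1 kb of the outermost starts, near position 31591343. With only the outermost start of each gene counted, Colq drops out and 3 of the 6 genes remain.

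The strongest peaks inside Colq were in its introns. The peak at chr14:31564776-31564925 had the same coordinates in both libraries and stood at percentile 95.8 in replicate 1 and 92.3 in replicate 2. The peak at chr14:31561116-31561265 stood at 92.7 in replicate 1 and 93.6 in replicate 2. They lie 6710 and 3050 bp upstream of the innermost start, in hotspots of 848 and 908 bp in replicate 1 and of 801 and 924 bp in replicate 2, all at the cap of 100. Gm49387, a coding model that spans Hacl1 and part of Colq, also covers them, so they cannot be assigned to Colq by position alone. An AP-1 site was in the intronic peak at chr14:31572976-31573125, at percentile 76.1 in replicate 1 and 55.4 in replicate 2.

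Both Colq sequences below lie outside annotated exons. The first is the intronic peak that ranked highest in replicate 1 and next to highest in replicate 2. It held no exact match to a site searched, and 20% of its letters are marked as repeats in the genome sequence. The second lies behind the gene, at percentile 68.1 in replicate 1 and 48.5 in replicate 2. It was chosen because it held the only exact CTCF match among the 83 shared peaks, in capitals.
Colq intron, chr14:31564776-31564925, plus strand: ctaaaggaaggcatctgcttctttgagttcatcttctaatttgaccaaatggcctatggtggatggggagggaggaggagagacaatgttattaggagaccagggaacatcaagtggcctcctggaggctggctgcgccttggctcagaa
Colq downstream, chr14:31519136-31519285, plus strand: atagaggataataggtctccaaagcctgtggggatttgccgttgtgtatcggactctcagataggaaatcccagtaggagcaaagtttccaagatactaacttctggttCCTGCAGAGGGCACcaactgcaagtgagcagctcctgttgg

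**Figure D4:**
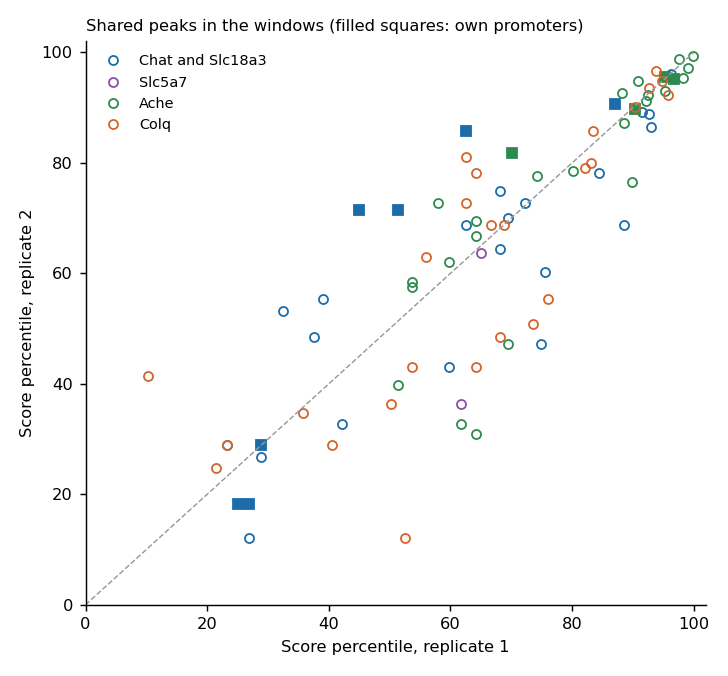
Score percentile in replicate 1 (horizontal axis) and in replicate 2 (vertical axis) of the 83 shared peaks, coloured by window; filled squares are promoter peaks of the acetylcholine genes and the dashed line marks equal ranks. The peaks of the Ache window crowd the upper right corner, with medians of 88.2 in replicate 1 and 81.8 in replicate 2.

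The ranks of the shared peaks were alike in the libraries. Over the 83 peaks Spearman's rho of the percentiles was 0.88 and Pearson's r was 0.85, given as a description: neighbouring peaks share a hotspot and a few share the same partner. Replicate 1 ranked 45 of them higher and replicate 2 ranked 37 higher, and 14 differed by more than 20 percentile points. The median percentile of shared peaks was 68.1 in replicate 1 and 70.1 in replicate 2, against 65 and 62.9 over all shared peaks of replicates 1 and 2. By window it was 88.2 in replicate 1 and 81.8 in replicate 2 at Ache, 62.5 and 66.6 at Chat and Slc18a3, and 65.4 and 65.8 at Colq. The 27 peaks of replicate 1 without a partner had a median percentile of 26.9 and the 22 of replicate 2 one of 36.3, so unpaired peaks were mostly weak, as they were over the whole lists (21.4 and 22.6).

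Promoter base composition differed among the 6 genes. The ratio of observed to expected CpG, taken over the outermost promoter, was 0.342 for Chat, 0.781 for Slc18a3, 0.388 for Slc5a7, 0.568 for Ache, 0.513 for Bche and 0.183 for Colq. In the decile of genes with a ratio like that of Slc18a3, 88.1% had a promoter peak in both libraries. The share was 41.5% in the decile that holds both Chat and Slc5a7, 77.8% in that of Ache, 60.5% in that of Bche and 28.4% in that of Colq. Chat and Slc5a7 were thus in the same decile, with promoter peaks in both libraries at Chat and none at Slc5a7. They differ in their neighbours: the outermost starts of Chat share a hotspot with the start of Slc18a3, whose ratio is higher. The peak between Chat and Slc18a3 counts as a promoter peak of both. Neither the part of CpG content nor that of a neighbouring start in these calls was tested.

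Of the genes that supply choline and acetyl-CoA or partner the enzymes, 19 of 24 (79.2%) had promoter peaks in both libraries, against 58.9% of all protein-coding genes. The CpG deciles of these 24 promoters had a mean share of 74.1%, so the count was near that of genes with like promoters. The median number of shared peaks in the window was 16, against 11 for all genes. All 11 genes of choline and phosphatidylcholine metabolism had promoter peaks in both libraries, among them the choline kinases Chka and Chkb, the Pcyt1a and Pcyt1b enzymes of the next step, and the phospholipases Pld1 and Pld2. So did all 3 genes of acetyl-CoA supply: Acly, which splits citrate, the pyruvate dehydrogenase subunit Pdha1, and the acetate-using Acss2. Shared peaks numbered 24 at Acly, 4 at Pdha1 and 28 at Acss2.

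Choline uptake was the group in which the smallest share had them. Promoter peaks were present in both libraries at Slc44a1 and Slc44a2, which are 2 of 6 uptake genes of other kinds. The share over all protein-coding genes was 58.9%. In the CpG deciles of these promoters it was 91.8% for Slc44a1, 77.8% for Slc44a2 and 60.5% for Slc44a3. It was 84.5% for Slc44a5 and 41.5% for both Slc44a4 and Slc22a2. With 6 genes the count is small, and the difference was not tested. Slc44a3, Slc44a5 and the organic cation transporter Slc22a2 had none, and Slc44a4 had 1 in replicate 2 and 0 in replicate 1. Slc44a1, a choline transporter of many cell types, had 25 shared peaks and Slc44a2 had 15. Among the choline transporters listed, both libraries thus had promoter peaks at Slc44a1 and Slc44a2 and replicate 2 alone at Slc44a4. Neither library had a promoter peak at the neuronal Slc5a7.

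The partners of the enzymes divided as well. Prima1, the membrane anchor of acetylcholinesterase in neurons, had 27 shared peaks, 22 of them distal, and promoter peaks in both libraries. Hspg2, the proteoglycan perlecan that binds the Colq tail in the basal lamina, had 35 shared peaks, at percentile 95.2 of all genes, and promoter peaks in both libraries. Musk, the muscle kinase to which Colq also binds, had 6 peaks in replicate 1 and 0 in replicate 2 and no promoter peak. Slc10a4, a transporter-like protein of cholinergic and monoaminergic vesicles, had 14 shared peaks and promoter peaks in both libraries.

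**Figure D5:**
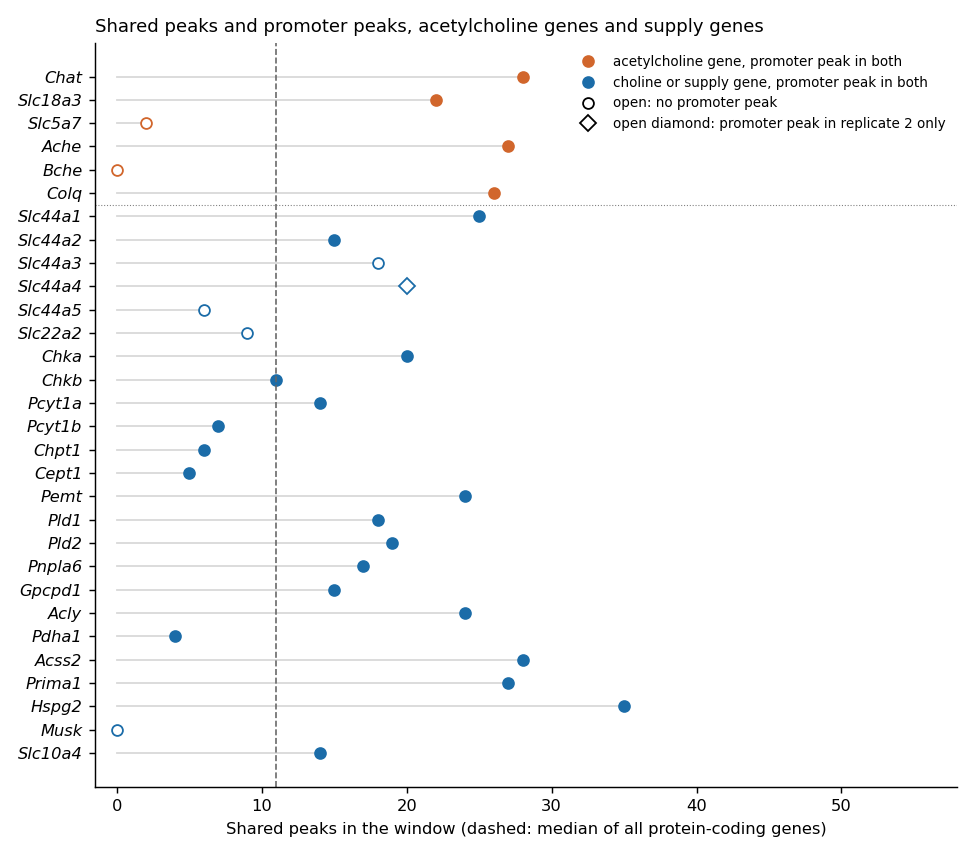
Shared peaks in the window of each acetylcholine gene (orange, above the dotted line) and of each supply or partner gene (blue); filled points have a promoter peak in both libraries. The dashed line is the median of all protein-coding genes, 11; Slc5a7, Bche, Slc44a3, Slc44a5, Slc22a2 and Musk have no promoter peak in either library.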

How the data were processed

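DNase-seq of MN1 cells was analysed from the authors' deposited lists of peaks and hotspots, made for each of 2 libraries without pooling, per the notes supplied with the files. Which aligner, caller and threshold made them is not given in the sources used here. Each deposited peak carries a score from 1 to 150, and each deposited hotspot a q-value on the −log10 scale from 1.3 to 100. The files give no read depth, so it is unknown. Entries listed more than once were kept once (43 repeats in replicate 1, 20 in replicate 2), and the 19 autosomes, X and Y were used.

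Start sites came from GENCODE M21, matched by symbol, and sequence from GRCm38, the assembly of mm10. Distances run from a peak's centre, and percentiles are mid-ranks where values tie. Counts were made with Python 3.11.15 and numpy 2.4.6, sequences were read with pysam 0.24.0, and the counting was tested on simulated peaks and sites. Genes, lists and motifs were chosen with earlier results of these data known. Named genes are the 6 genes, the 24 supply and partner genes counted (1 further gene of the list is not reported here), and coding neighbours whose promoter holds a peak or which are nearest to one. Named peaks are the promoter peaks of the 6 genes and, per window, up to 5 shared distal peaks with the highest mean percentile and up to 3 peaks of 1 library; others were named after their values were seen. Alternatives changed promoter width, start sites, score minimum, overlap, flank and library.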

Additional observations from a re-analysis of the deposited data

How the results depend on the processing

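The genes with a promoter peak in both libraries numbered 4 of 6. They numbered 4 as well with promoters of 500 bp or 2.5 kb, with peaks at or above the median score, and with either library alone; they numbered 3 with the outermost start only and, in an alternative chosen after seeing the data, with overlapping promoter peaks. For the supply and partner genes the main count of 19 of 24 ranged from 17 to 21. The 83 shared peaks depended on the flank and the score minimum: 54 with flanks of 25 kb, 136 with flanks of 100 kb, and 55 with peaks at or above the median score. They numbered 74 with an overlap of 75 bp, 81 on the list of replicate 2, 88 with a hotspot of the other library in place of a peak, 80 with overlapping peaks of a list joined (chosen after seeing the data), and 103 to 110 with a single library. Distal peaks numbered 51, and 37 to 48 under the other definitions. Shared peaks with any of the 10 sites numbered 34, and 45 in 300 bp around the centre. No paired analysis was possible because the series holds 1 group. Read depth is unknown, so a stretch without a peak is a stretch in which none was called.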

Other observations

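PHOX2 proteins are homeodomain factors of visceral motor and autonomic neurons, and their sites were looked up over the whole windows as well. Of 5 such sites near Chat and Slc18a3, 1 lay in a peak of replicate 1, at chr14:32443679-32443689 in an intron of Chat, and none in a peak of replicate 2. The site at chr14:32468126-32468136, upstream of Chat, lay in no peak, 124 bp from the centre of the nearest peak of replicate 1. The single PHOX2 site in a shared peak lay behind Colq, at chr14:31518654-31518664, and the peak of replicate 2 there did not cover it whole. None of the PHOX2 sites in the Slc5a7 window was in a peak.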
